A study of Mus musculus with 12 samples.

Results

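Interferon-stimulated genes are the antiviral genes that a cell switches on after it senses virus-like nucleic acid or receives an interferon signal. A list of 39 such mouse genes was drawn up by symbol. A gene was taken as measured where the array's annotation gave a probe set to that gene alone. Of the 39, 36 were measured, each by 1 probe set, among 19938 genes in all. The other 3 were not analysed here: the probe sets of Isg15 and Gbp2 are shared with another gene, and no probe set was annotated to Ifi44.

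The series followed mouse embryonic fibroblasts, labelled as coming from an OG2 cross with 129/sv, during and outside reprogramming. OG2 mice carry a green fluorescent reporter driven by Oct4 regulatory sequence. In 1 arm the cells received the SKO reprogramming factors, letters commonly read as Sox2, Klf4 and Oct4, together with retrovirus for microRNA cluster B, for cluster C, or a blank control virus. In the other arm, which the labels also mark as Group2, the cells received cluster B, cluster C or blank virus and no SKO. All cells were infected in 2 rounds, so every group compared here had met retrovirus, and no uninfected cells were analysed. All were kept in mouse embryonic stem cell medium, and were lysed on day 4 or day 8 counted from the first infection. Feeder cells were eliminated before lysis, per the labels. Each of the 12 combinations of arm, virus and day was measured on 1 array, so the 3 viruses serve as the repeats of a day change and p-values measure only the spread between these arrays. SKO and the Group2 tag cannot be told apart.

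Pou5f1, which encodes Oct4, was at least 11.6 (log2) on the 6 SKO arrays and between 3.35 and 4.56 on the 6 others, in the order the labels give. The 12 arrays had medians of 4.98 to 5.07 and lower quartiles of 3.48 to 3.68. All values below are log2 values as deposited, so a difference of 1 is a doubling, and 3 levels given together are always in the order blank virus, cluster B, cluster C. A level of 1 gene cannot be set against that of another, since probe sets differ in their binding. These are bulk samples, in which fewer responding cells and less RNA per cell cannot be told apart.

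In the textbook pathway, type I interferons bind the receptor pair Ifnar1 and Ifnar2, whose kinases Jak1 and Tyk2 phosphorylate STAT proteins, Stat2 among them. Stat2 works with Irf9, and the complex they are part of binds the interferon-stimulated response element in promoters. Inside the cell, helicase sensors such as Ifih1 recognise double-stranded RNA and signal through Mavs, which can start interferon production. Several of the induced genes encode the pathway's own parts (Stat2, Irf9, Irf7, Ifih1), and Usp18 damps the receptor.

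The response element is written GAAANNGAA at its core. RefSeq promoters (GRCm38.p6, 250 bases before to 50 bases after each start) were available for 29 of the 39 listed genes, as 33 promoters. These letters, on either strand, were in 20 of the 33 (60.6%), which belong to 19 genes, against 8.56% of all 32851 promoters of that length. The longer form followed by AC, which overlaps the first, was in 42.4% against 0.819%. For contrast, TTCNNNGAA, the gamma-activated site of interferon gamma responses, was in 12.1% against 8.3%. In 69 promoters of other interferon-stimulated genes, a list taken up below, the shares were 43.5%, 24.6% and 15.9% in the same order. A match of letters is a description of sequence and not a measured binding site. The 5 promoters below belong to the genes, among those with a promoter in the table, whose day change differed between the arms, and show how the element is placed in them. The 250 bases before each start are printed 5′ to 3′ along the gene, with matches on either strand in capitals.
Ddx60: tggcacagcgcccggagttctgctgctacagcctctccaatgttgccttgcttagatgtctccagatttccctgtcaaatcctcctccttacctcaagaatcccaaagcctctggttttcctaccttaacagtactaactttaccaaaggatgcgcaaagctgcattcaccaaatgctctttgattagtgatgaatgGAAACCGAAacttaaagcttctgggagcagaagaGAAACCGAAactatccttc
Cxcl10: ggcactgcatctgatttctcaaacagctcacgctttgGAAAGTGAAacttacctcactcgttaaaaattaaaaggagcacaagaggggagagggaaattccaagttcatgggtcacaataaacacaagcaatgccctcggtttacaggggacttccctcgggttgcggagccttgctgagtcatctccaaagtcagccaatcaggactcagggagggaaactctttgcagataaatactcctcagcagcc
Rsad2: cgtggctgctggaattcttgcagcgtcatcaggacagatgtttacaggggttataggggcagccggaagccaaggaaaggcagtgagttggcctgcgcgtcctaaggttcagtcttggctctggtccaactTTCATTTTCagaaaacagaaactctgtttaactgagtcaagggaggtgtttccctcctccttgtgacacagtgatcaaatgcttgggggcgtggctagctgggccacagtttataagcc
Ifit3b: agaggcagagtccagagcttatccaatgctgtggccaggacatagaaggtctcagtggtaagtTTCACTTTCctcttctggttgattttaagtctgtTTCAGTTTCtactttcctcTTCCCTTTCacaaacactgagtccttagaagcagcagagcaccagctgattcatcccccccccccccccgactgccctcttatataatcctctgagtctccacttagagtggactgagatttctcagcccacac
Cmpk2: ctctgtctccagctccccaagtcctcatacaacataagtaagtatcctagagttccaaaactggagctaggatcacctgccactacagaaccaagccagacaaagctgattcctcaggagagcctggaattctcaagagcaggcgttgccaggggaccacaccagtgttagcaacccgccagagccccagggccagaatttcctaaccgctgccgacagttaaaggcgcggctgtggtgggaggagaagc
These stretches are chr8:61927837-61928086 (plus strand) for Ddx60, chr5:92348890-92349139 (minus strand) for Cxcl10, chr12:26456453-26456702 (minus strand) for Rsad2, chr19:34607707-34607956 (plus strand) for Ifit3b and chr12:26468965-26469214 (plus strand) for Cmpk2. Ddx60 has 2 matches within 53 bases of its start, Ifit3b has 3, and Cxcl10 and Rsad2 have 1 each, with the one in Cxcl10 the farther from its start. Cmpk2 has none in this window. Its start lies on the strand opposite to that of Rsad2, and the genes are 12665 bases apart.

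Without SKO, most of these genes were lower on day 8 than on day 4. Of the 36, 18 fell and 1, Ifi27, rose (limma, Benjamini-Hochberg adjusted p under 0.05 over 19938 genes). Over all genes 4.63% fell and 4.05% rose. The median day change of the 36 was -0.78, with 35 below 0, against 0.01 over all genes. In 29 of the 36, all 3 day 4 arrays lay above all 3 day 8 arrays, an ordering seen in 15.8% of all genes. The genes that fell were the 4 Ifit genes, Mx2, Usp18, Herc6, Parp9, Parp14, Dtx3l, Ddx60, Ifih1, Eif2ak2, Cmpk2, Rsad2, Cxcl10, Irf9 and Stat2. The number that fell was 8 without the blank virus arrays of this arm, 7 without cluster B and 10 without cluster C, each of which leaves 2 viruses.

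With SKO, the list showed no common day change. Oas3 and Ifi27 rose and Cxcl10 fell; over all genes 5.24% rose and 3.66% fell. The median day change was 0.08, with 22 genes above 0 and 14 below. Without the SKO cluster B arrays the median was -0.22 and 27 genes were below 0. All 3 day 8 arrays lay above all 3 day 4 arrays for Oas3, Dhx58 and Ifi27, 3 genes of 36 against 14.2% of all genes, and the reverse held for Cxcl10 alone, against 14%.

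Some markers of cell types moved between the days as well. Over all genes 4.05% rose without SKO and 5.24% rose with SKO. The marker lists are short, and a count of 1 in them cannot be told from those shares. All 10 fibroblast markers were measured, and their mean log2 value without SKO was 10.7 to 10.8 on day 4 and 11.0 to 11.1 on day 8, with 2 of 10 (Dcn and Lum) rising; with SKO it was 9.86 to 10.1 on both days, with 1 of 10 (Pdgfra) rising. The mean of 12 leukocyte and macrophage markers without SKO was 4.69 to 4.88 on day 4 and 5.11 to 5.31 on day 8. There 2 of 12 (Csf1r and Lyz2) rose past the threshold, 11 lay above 0 and the median change was 0.43. Over all genes the median was 0.01. With SKO the mean was 4.69 to 4.76 and 4.74 to 4.89, with 1 of 12 (Itgam) rising, 8 above 0 and a median of 0.05. The day change with SKO minus without had a median of -0.40 with 11 of 12 below 0, and 0 passed. Ptprc, which defines leukocytes, stood at 3.84, 4.14 and 4.13 on day 4 and 4.41, 4.42 and 4.25 on day 8 without SKO. The mean of 4 measured plasmacytoid dendritic markers without SKO was 4.94 to 5.36 on day 4 and 4.94 to 5.15 on day 8. With SKO it was 4.86 to 5.01 and 5.13 to 5.61, and 1 of 4 (Ly6d) rose, by 1.37 ± 0.15 (limma, adjusted p = 0.00111). The median change of the 4 with SKO was 0.27, with 3 above 0 and Siglech below it, at -0.38. The 8 pluripotency markers had a mean of 3.90 to 4.28 on day 4 and 4.94 to 6.82 on day 8 with SKO, where 4 rose, and 4.13 to 4.44 and 4.18 to 4.28 without. The mean of 5 endothelial markers with SKO was 4.55 to 4.63 on day 4 and 4.64 to 4.81 on day 8. Without SKO it was 3.84 to 3.90 and 3.82 to 4.00, and 1 of 5 (Tek) rose. Between the arms 1 of the 5 passed, Tek, higher with SKO by 3.87 on day 4 and 3.58 on day 8. Over all genes 9.52% and 13.4% were higher. The median difference of the 5 was -0.004 on day 4 and 0.17 on day 8, so the gap in the means rests on Tek. Other marker lists differed between the arms too. Of the 10 fibroblast markers, 7 were lower and 1 (Dcn) higher with SKO on day 4. On day 8, 8 were lower and 0 higher. Of 12 leukocyte and macrophage markers, 2 were lower and 2 higher on day 4, and 9 lower and 2 higher on day 8. On day 8, 4 of 8 pluripotency and 2 of 4 plasmacytoid dendritic markers were higher. Over all genes 9.4% were lower on day 4 and 12.7% on day 8. The part of these shifts in the interferon-stimulated genes was not tested.

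**Figure D1:**
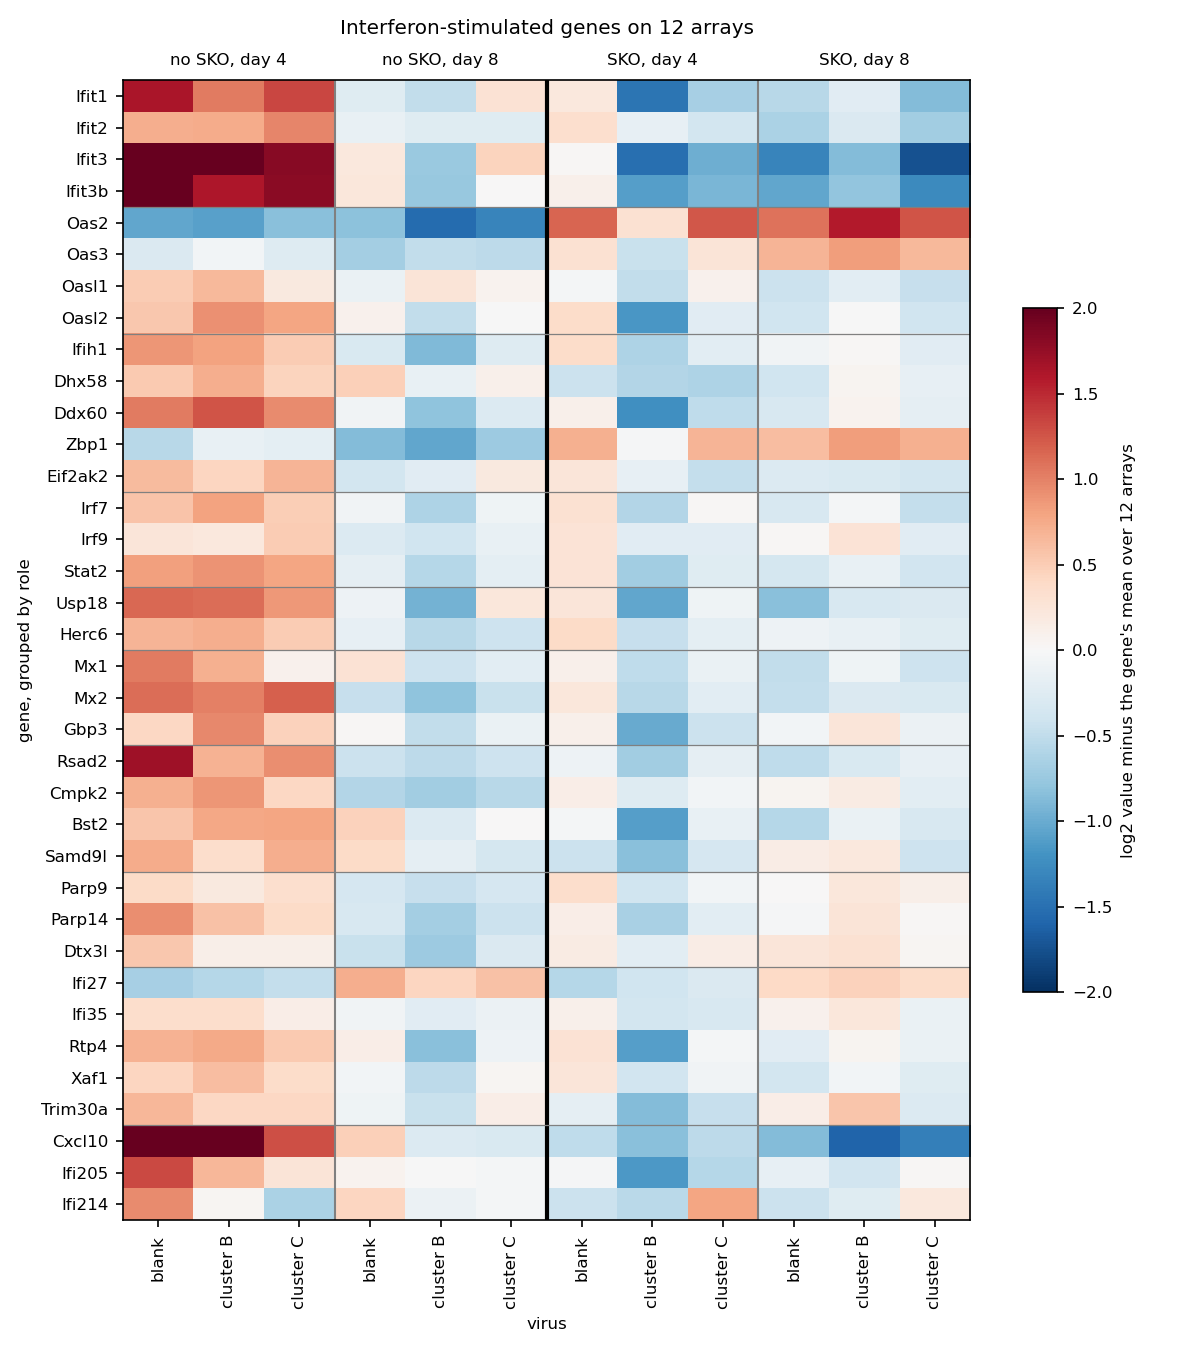
Each row is 1 of the 36 measured genes, grouped by role, and each column 1 of the 12 arrays, by arm, day and virus; colour gives the log2 value minus the gene's mean over the 12 arrays, clipped at 2 either way. The 3 day 4 arrays without SKO are red in most rows, and Ifi27, Oas2, Oas3 and Zbp1 are at or below their mean there.

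Some IFIT proteins bind viral RNA by its 5′ end and block its translation. The 4 Ifit genes of the list lie in a row on chromosome 19 (GRCm38.p6, 34550550 to 34650009). Ifit3 and Ifit3b are near-identical neighbours whose probe sets may share signal, so their values are uncertain as separate measurements. All 4 fell without SKO. Ifit3 measured 9.42, 9.41 and 8.92 on day 4 and 7.31, 6.35 and 7.54 on day 8, every day 4 array above every day 8 array. In limma its change was -2.18 ± 0.37 (SE, adjusted p = 0.00986, and 0.00452 to 0.0592 over the alternatives), the lowest of the 36. The call was lost without blank virus or without cluster B. Here and elsewhere the SE pools the spread of both arms, so it does not show the scatter of 1 arm. By virus, Ifit3 changed by -2.10, -3.06 and -1.38 without SKO and by -1.34, 0.64 and -0.76 with SKO. Ifit3b stood at 7.22, 6.75 and 6.94 on day 4 and 5.36, 4.38 and 5.14 on day 8, and fell by 2.01 ± 0.24 (adjusted p = 0.0019), a call kept in all 19 alternatives.

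Ifit1, a sensor of viral RNA caps, measured 9.31, 8.73 and 9.02 on day 4 and 7.43, 7.20 and 7.98 on day 8 without SKO. The days did not overlap, and it fell by 1.49 ± 0.32 (adjusted p = 0.0231; 0.0037 to 0.128 over the alternatives), a call lost without any 1 of the viruses in this arm and under a variance trend. Ifit2 stood at 6.53, 6.54 and 6.79 on day 4 and 5.65, 5.56 and 5.57 on day 8, a fall of 1.03 ± 0.16 (adjusted p = 0.00678; 0.000176 to 0.0541) whose call was lost without cluster C. With SKO the day 4 levels of these genes were lower and scattered by virus. Ifit1 measured 7.89, 6.22 and 7.02 on day 4 and 7.13, 7.45 and 6.81 on day 8, with cluster B lowest on day 4 and highest on day 8. Ifit3 measured 7.13, 5.59 and 6.12 on day 4 and 5.78, 6.23 and 5.35 on day 8. For both, the days overlapped. Ifit3b stood at 5.23, 4.02 and 4.21 on day 4 and 4.10, 4.35 and 3.86 on day 8, its days overlapping. Ifit2 measured 6.14, 5.63 and 5.44 on day 4 and 5.17, 5.51 and 5.11 on day 8, where the cluster C day 4 array lay below the cluster B day 8 array. The fitted changes with SKO ran from -0.49 (Ifit3) to 0.09 (Ifit1), and none passed.

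The OAS enzymes make the short oligoadenylates that activate the RNA-cutting enzyme RNase L, and the OAS-like proteins Oasl1 and Oasl2 are their relatives. None of the 4 passed without SKO, where changes ran from -0.88 (Oasl2) to -0.23 (Oas2). With SKO, Oas3 measured 5.23, 4.48 and 5.18 on day 4 and 5.60, 5.76 and 5.58 on day 8, every day 8 array above every day 4 array, with the cluster B day 4 array the lowest. It rose by 0.68 ± 0.17 (adjusted p = 0.0415; 0.0111 to 0.148 over the alternatives), a call lost in 14 of 19 alternatives, including the omission of any virus from the SKO arm; the change was 0.38 without cluster B. Without SKO the gene stood lower, at 4.64, 4.87 and 4.66 on day 4 and 4.24, 4.42 and 4.40 on day 8, a change of -0.37 ± 0.17 (adjusted p = 0.228).

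Oas2, described here because of its level, which was seen first, went against most of the list in its difference between arms. With SKO it measured 7.30, 6.44 and 7.38 on day 4 and 7.21, 7.71 and 7.39 on day 8, and without SKO 5.08, 5.03 and 5.29 on day 4 and 5.31, 4.59 and 4.81 on day 8. On both days the lowest SKO array lay above the highest of the others. The difference, SKO minus no SKO, was 1.90 ± 0.25 on day 4 (adjusted p = 0.000764) and 2.53 ± 0.25 on day 8 (adjusted p = 9.07e-05). Oasl1, the gene of this family with the smallest difference in day change between arms, measured 6.27, 6.42 and 5.96 on day 4 and 5.64, 6.02 and 5.84 on day 8 without SKO. Its levels with SKO were 5.72, 5.28 and 5.85 on day 4 and 5.34, 5.56 and 5.30 on day 8, and the days overlapped in both arms.

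Cytoplasmic sensors of nucleic acid and the kinase Eif2ak2 (PKR), which halts translation when it binds double-stranded RNA, made a group of 5, of which 3 fell without SKO. Ddx60, a helicase described as a helper of RNA sensing, measured 6.42, 6.63 and 6.32 on day 4 and 5.30, 4.57 and 5.10 on day 8 without SKO. The days did not overlap, and it fell by 1.47 ± 0.29 (adjusted p = 0.0172; 0.00825 to 0.096 over the alternatives), though the call was lost without any 1 virus of the arm. With SKO it stood at 5.47, 4.15 and 4.86 on day 4 and 5.05, 5.44 and 5.19 on day 8, the blank virus array falling and the other 2 rising, a change of 0.40 ± 0.29 (adjusted p = 0.484). Ifih1 (MDA5), a sensor of long double-stranded RNA, measured 7.42, 7.34 and 7.05 on day 4 and 6.22, 5.65 and 6.27 on day 8 without SKO, and its days did not overlap. It fell by 1.22 ± 0.22 (adjusted p = 0.0111; 0.00267 to 0.0674), with the call lost without blank virus or cluster B.

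Eif2ak2 stood at 8.15, 7.94 and 8.18 on day 4 and 7.15, 7.29 and 7.70 on day 8 without SKO, so that the days did not overlap, and fell by 0.71 ± 0.15 (adjusted p = 0.0201; 0.000774 to 0.12); the call was lost without any 1 virus of the arm. With SKO it measured 7.76, 7.35 and 7.03 on day 4 and 7.23, 7.20 and 7.14 on day 8, a change of -0.19 ± 0.15 (adjusted p = 0.517). Zbp1, a sensor of Z-form nucleic acid that can trigger cell death, did not pass in either day change. Its levels with SKO were 7.11, 6.37 and 7.08 on day 4 and 7.01, 7.23 and 7.10 on day 8, and without SKO 5.84, 6.25 and 6.20 on day 4 and 5.52, 5.35 and 5.67 on day 8. Like Oas2 it was higher on every SKO array than on every other array of the same day. The gene was singled out after these levels were seen. The difference between arms was 0.76 ± 0.19 on day 4 (adjusted p = 0.0213) and 1.60 ± 0.19 on day 8 (adjusted p = 0.000262). Dhx58 (LGP2), which modulates the RNA sensors, changed by -0.43 ± 0.17 without SKO and 0.38 ± 0.17 with SKO, and neither passed (adjusted p = 0.161 and 0.225).

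**Figure D2:**
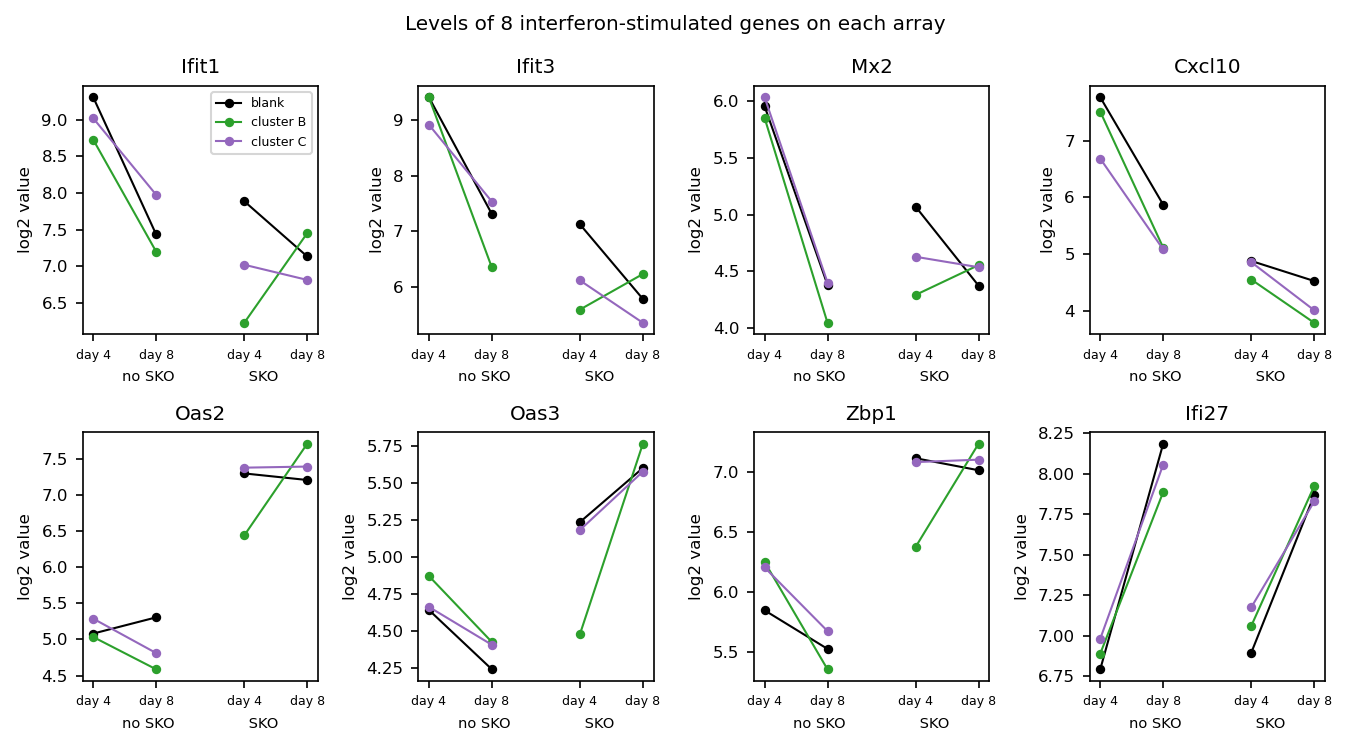
Log2 values of 8 genes on each array, with the 2 days of 1 virus joined by a line, no SKO on the left of each panel and SKO on the right. Oas2 and Zbp1 stand higher with SKO, Cxcl10 falls in both arms, Ifi27 rises in both arms, and cluster B starts lowest of the 3 SKO lines in 7 panels, all but Ifi27.

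Of the 3 transcription factors, 2 fell without SKO. Stat2, a signal transducer of the type I interferon receptor, measured 8.78, 8.86 and 8.76 on day 4 and 7.79, 7.40 and 7.77 on day 8. All day 4 arrays lay clear of the day 8 arrays, and it fell by 1.15 ± 0.20 (adjusted p = 0.0107; 0.00486 to 0.0682 over the alternatives), with the call lost without cluster B or cluster C. Irf9, the DNA-binding part of the complex, measured 7.69, 7.67 and 7.96 on day 4 and 7.19, 7.06 and 7.31 on day 8. It fell by 0.59 ± 0.14 (adjusted p = 0.0339; 0.00213 to 0.148), and the call was lost under quantile normalization and without any 1 virus of the arm. Irf7, which drives the later wave of interferon genes, changed by -0.88 ± 0.24 and did not pass (adjusted p = 0.0543), although its days did not overlap. With SKO the 3 genes changed by -0.19 to 0.08 and none passed; Stat2 stood at 8.24, 7.27 and 7.73 on day 4 and 7.62, 7.83 and 7.58 on day 8.

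Usp18 and Herc6 work on Isg15, the ubiquitin-like modifier that interferon induces: Usp18 removes it and Herc6 attaches it in mouse cells. Usp18 measured 8.33, 8.31 and 8.04 on day 4 and 7.09, 6.23 and 7.41 on day 8 without SKO, days apart, and fell by 1.32 ± 0.33 (adjusted p = 0.0405; 0.022 to 0.185 over the alternatives). That call was lost under a variance trend, without SKO cluster C and without any 1 virus of its own arm. Herc6 measured 6.20, 6.25 and 6.03 on day 4 and 5.36, 4.97 and 5.11 on day 8 and fell by 1.01 ± 0.16 (adjusted p = 0.00678), a call kept in all 19 alternatives. With SKO Usp18 stood at 7.43, 6.14 and 7.09 on day 4 and 6.35, 6.85 and 6.89 on day 8. Herc6 stood at 5.91, 5.06 and 5.32 on day 4 and 5.42, 5.38 and 5.28 on day 8, and the days overlapped for both.

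Among the antiviral GTPases, Mx2 fell without SKO and Mx1 and Gbp3 did not pass. Mx2 measured 5.96, 5.85 and 6.04 on day 4 and 4.38, 4.05 and 4.40 on day 8, 3 closely placed values on each day. It fell by 1.67 ± 0.16 (adjusted p = 0.000683), and the call was kept in all 19 alternatives. With SKO it stood at 5.07, 4.29 and 4.63 on day 4 and 4.37, 4.56 and 4.54 on day 8, a change of -0.18 ± 0.16 (adjusted p = 0.606). Mx1, which averaged 3.43 and so lay below every array's lower quartile, measured 4.47, 4.14 and 3.52 on day 4 and 3.72, 3.02 and 3.22 on day 8 without SKO. Its SKO arrays read 3.53, 2.92 and 3.30 on day 4 and 2.93, 3.35 and 3.02 on day 8, the days overlapping in both arms. Gbp3, a member of the guanylate-binding protein family, changed by -0.81 ± 0.27 without SKO (adjusted p = 0.0982).

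Rsad2 (viperin) makes a chain-ending nucleotide from CTP, and its neighbour Cmpk2 phosphorylates pyrimidine nucleotides in mitochondria. Both fell without SKO in all 19 alternatives. Rsad2 measured 6.80, 5.79 and 6.03 on day 4 and 4.67, 4.57 and 4.68 on day 8, with the blank virus array highest on day 4 and the day 8 arrays nearly level, and fell by 1.57 ± 0.19 (adjusted p = 0.00239). Cmpk2 measured 5.62, 5.81 and 5.33 on day 4 and 4.33, 4.23 and 4.37 on day 8, the days well apart, and fell by 1.28 ± 0.15 (adjusted p = 0.00188). On SKO arrays Rsad2 stood at 4.99, 4.40 and 4.92 on day 4 and 4.60, 4.79 and 4.94 on day 8, a change of 0.00 ± 0.19. Cmpk2 stood at 5.05, 4.66 and 4.86 on day 4 and 4.97, 5.08 and 4.72 on day 8, a change of 0.06 ± 0.15. Bst2 (tetherin), which holds budding enveloped viruses at the cell surface, measured 7.74, 7.95 and 7.98 on day 4 and 7.65, 6.92 and 7.20 on day 8 without SKO and did not pass (adjusted p = 0.185). With SKO Bst2 stood at 7.14, 6.08 and 7.03 on day 4 and 6.61, 7.05 and 6.87 on day 8, a change of 0.09 ± 0.27 with overlapping days. Samd9l, a translation-blocking antiviral factor, changed by -0.66 ± 0.21 without SKO and 0.52 ± 0.21 with SKO, neither past the threshold.

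Parp9 and the ubiquitin ligase Dtx3l form a complex that enhances interferon responses, and Parp14 is an ADP-ribosyltransferase encoded beside them on chromosome 16. All 3 fell without SKO. Parp14 measured 7.27, 6.93 and 6.73 on day 4 and 6.02, 5.67 and 5.92 on day 8, its days apart, and fell by 1.11 ± 0.19 (adjusted p = 0.00916; 0.000353 to 0.063 over the alternatives). Dtx3l stood at 7.21, 6.80 and 6.80 on day 4 and 6.23, 5.95 and 6.39 on day 8 and fell by 0.75 ± 0.15 (adjusted p = 0.0188; 0.00094 to 0.113). Both calls were lost without blank virus or without cluster B. Parp9 stood at 7.76, 7.57 and 7.71 on day 4 and 7.04, 6.91 and 7.04 on day 8 and fell by 0.68 ± 0.16 (adjusted p = 0.0359; 0.00342 to 0.143), a call lost under quantile normalization, without SKO cluster C and without any 1 virus of its own arm. The annotated spans of Dtx3l and Parp9 overlap by 557 bases. With SKO Parp14 measured 6.49, 5.70 and 6.13 on day 4 and 6.32, 6.60 and 6.38 on day 8. Parp9 measured 7.73, 6.97 and 7.32 on day 4 and 7.38, 7.61 and 7.49 on day 8. Both genes had their lowest SKO value on the cluster B day 4 array, and the 3 genes changed by 0.15 to 0.33, none past the threshold.

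Cxcl10, the chemokine that attracts activated T cells, fell in both arms. Without SKO it measured 7.76, 7.51 and 6.68 on day 4 and 5.87, 5.12 and 5.09 on day 8, and fell by 1.96 ± 0.16 (adjusted p = 0.000234), kept in all 19 alternatives. With SKO it measured 4.88, 4.56 and 4.86 on day 4 and 4.53, 3.79 and 4.01 on day 8, every day 4 value lying below every day 4 value without SKO, and fell by 0.65 ± 0.16 (adjusted p = 0.0372; 0.00823 to 0.177 over the alternatives). The call with SKO was lost without any 1 virus of the SKO arm and without blank virus of the other arm. Of its group, Ifi205, a p200-family DNA-binding protein, changed by -0.74 ± 0.21 without SKO and 0.40 ± 0.21 with SKO and did not pass. Ifi214, of the same family, averaged 2.26, below every array's lower quartile. It measured 3.21, 2.31 and 1.63 on day 4 and 2.70, 2.15 and 2.22 on day 8 without SKO. On SKO arrays it stood at 1.83, 1.72 and 3.05 on day 4 and 1.83, 2.02 and 2.47 on day 8, and the days overlapped in both arms.

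Ifi27, a small interferon-induced membrane protein, rose in both arms and was the 1 gene of the 36 above 0 without SKO. It measured 6.79, 6.89 and 6.98 on day 4 and 8.18, 7.89 and 8.06 on day 8 without SKO. With SKO it measured 6.90, 7.06 and 7.18 on day 4 and 7.87, 7.92 and 7.83 on day 8, and in both arms every day 8 array lay above every day 4 array. The rise was 1.15 ± 0.12 without SKO (adjusted p = 0.000786) and 0.83 ± 0.12 with SKO (adjusted p = 0.00329), and both calls were kept in all 19 alternatives. The remaining 4 genes of this mixed group did not pass in either arm. Trim30a, a TRIM protein that restrains inflammatory signalling, measured 5.22, 4.97 and 4.98 on day 4 and 4.48, 4.11 and 4.70 on day 8 without SKO, a change of -0.63 ± 0.22. On SKO arrays it stood at 4.39, 3.69 and 4.11 on day 4 and 4.69, 5.11 and 4.28 on day 8, a change of 0.63 ± 0.22, the 2 cluster B arrays being the lowest and the highest. Ifi35, the receptor chaperone Rtp4 and the pro-death factor Xaf1 changed by -0.92 to -0.42 without SKO and by -0.15 to 0.25 with SKO.

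Taken by virus, the fall without SKO was present in each of the 3 pairs of arrays. The median single-pair day change was -0.75 with blank virus (34 of 36 below 0), -1.13 with cluster B (35 below 0) and -0.64 with cluster C (34 below 0), against medians within 0.03 of 0 over all genes. With SKO the 3 viruses went different ways. Blank virus gave a median of -0.39 with 30 genes below 0, cluster B gave 0.64 with 33 above 0, and cluster C gave -0.08 with 22 below 0.

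Certain arrays stood apart from the others of their arm. With SKO, the cluster B day 4 array was the lowest of the 6 for 28 of the 36 genes, against 18.3% of all genes, and the blank virus day 4 array was the highest for 20, against 16.8%. Without SKO, the cluster B day 8 array was the lowest of its 6 for 28 genes, against 14.4% of all genes. Cluster B minus blank virus with SKO had a median of -0.76 on day 4 (35 below 0) and 0.24 on day 8 (32 above 0). Cluster C minus blank virus with SKO had a median of -0.33 on day 4 (31 below 0) and -0.04 on day 8 (20 below 0). A fit of each virus's day change against the other 2 viruses of its arm gave no gene among the 36 past the threshold in any of 6 contrasts, and no gene of the 19938 passed either. In the SKO cluster B contrast the median was 0.83, 35 of 36 lay above 0, and 21 had an unadjusted p under 0.05 in that direction, as had 3.04% of all genes; its lowest adjusted p among the 36 was 0.986. At an unadjusted p under 0.05, 9 genes were lower for SKO blank virus (background 1.9%) and 1 for SKO cluster C (3.48%). Without SKO, 1 was lower for blank virus (2.02%), 2 were lower for cluster B (3.85%) and 1 was higher for cluster C (1.75%). A single pair has no repeat, so the arrays and the virus cannot be told apart.

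**Figure D3:**
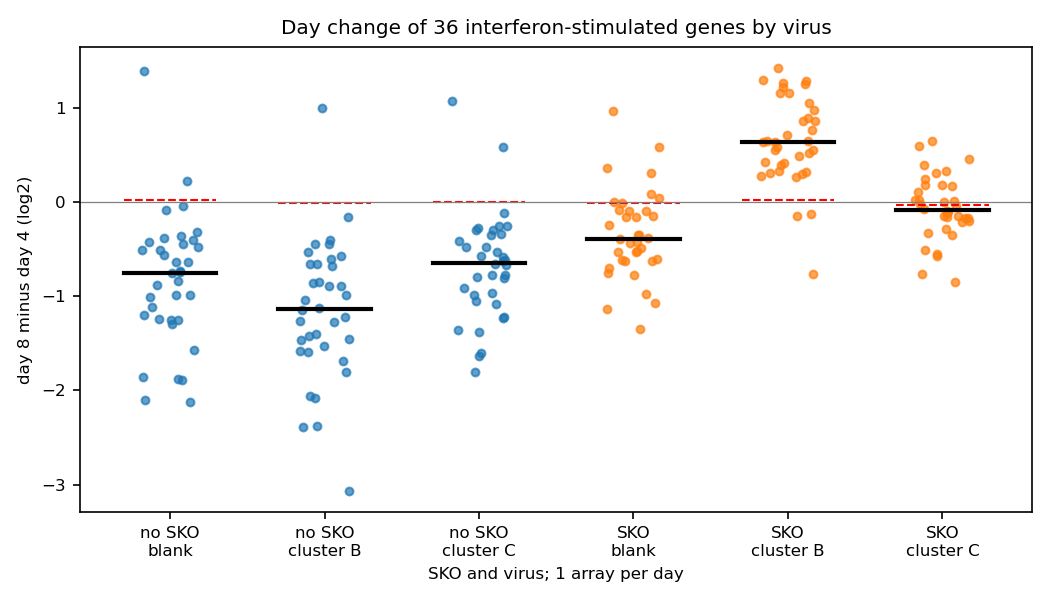
Day 8 minus day 4 (log2) of the 36 genes, 1 point per gene, for each arm and virus, from 1 array per day; black bars are medians of the 36 and dashed red bars medians of all genes. The 3 medians without SKO are -0.75, -1.13 and -0.64, and those with SKO are -0.39, 0.64 and -0.08.

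On day 4 most of the list was lower with SKO than without. Of the 36 genes, 25 were lower and 2 (Oas2 and Zbp1) higher; over all genes 9.4% were lower and 9.52% higher. The median difference was -0.89, and for 27 genes all 3 arrays without SKO lay above all 3 SKO arrays, against 17.9% of all genes. The lowest were Ifit3 (-2.97 ± 0.37, adjusted p = 0.000591), Cxcl10 (-2.55 ± 0.16, adjusted p = 1.33e-05) and Ifit3b (-2.48 ± 0.24, adjusted p = 0.00012). The number lower was 12 without the SKO cluster B array of day 4, 13 without the no-SKO cluster B array and 16 without the no-SKO blank virus array. The number higher was 1 without either blank virus array or either cluster C array of day 4.

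By day 8 the list no longer leaned one way. In the comparison of arms 5 genes were higher with SKO (Oas2, Oas3, Zbp1, Dtx3l and Cmpk2) and 3 lower (Ifit3, Ifit3b and Cxcl10), with 13.4% higher and 12.7% lower over all genes. The median difference was 0.03, and it was -0.037 under quantile normalization, -0.0046 with equal array medians, -0.22 without the SKO cluster B array and -0.14 without the no-SKO cluster B array. Dtx3l was higher by 0.69 ± 0.15 (adjusted p = 0.00947) and Oas3 by 1.29 ± 0.17 (adjusted p = 0.000575), while Cxcl10 was lower, at -1.25 ± 0.16 (adjusted p = 0.000461). The count of higher genes was 3 without either cluster B array or the no-SKO blank virus array. The count of lower genes was 1 without either blank virus array or either cluster C array, and 6 without the SKO cluster B array.

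The day changes themselves differed between the arms in 7 genes, all with a higher change with SKO than without. Over all genes 1.97% had a higher and 1% a lower change. In the fit this difference is the arm difference on day 8 less that on day 4, from the same arrays. It is thus fixed by those comparisons of arms and is not separate support for them. No gene of the 36 passed in the other direction. At an unadjusted p under 0.05, limma gave 27 of the 36 as higher and 0 as lower, against 9.48% and 7.87% of all genes. The 7 were Ddx60 (1.87 ± 0.41, adjusted p = 0.0476), Ifit3b (1.62 ± 0.33, adjusted p = 0.039), Rsad2 (1.57 ± 0.27, adjusted p = 0.0205), Mx2 (1.50 ± 0.23, adjusted p = 0.0128), Parp14 (1.43 ± 0.26, adjusted p = 0.0251), Cmpk2 (1.34 ± 0.21, adjusted p = 0.0133) and Cxcl10 (1.31 ± 0.23, adjusted p = 0.0198). The median over the 36 was 1.003, against -0.02 over all genes, with Ifi27 (-0.32 ± 0.16) the lowest. For 24 genes the 3 single-pair changes with SKO all lay above the 3 without, against 12.8% of all genes. With SKO on day 8, Ifit3b stood at 3.86 to 4.35 and Cxcl10 at 3.79 to 4.53. These levels are not far above the arrays' lower quartiles of 3.48 to 3.68, and whether that limited their fall was not tested.

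This count moved with the arrays used. It was 3 without SKO cluster B or SKO cluster C, 2 without blank virus or cluster C of the other arm, 4 without its cluster B and 8 without SKO blank virus. It was 19 with a variance trend and robust estimation. Each of the 7 calls was lost without at least 1 virus. For Cmpk2 that was no-SKO blank virus (adjusted p 0.00124 to 0.0501 over its 18 alternatives), and for Mx2 cluster C of either arm (0.000785 to 0.0516). Rsad2's call was lost without SKO cluster B or cluster C of either arm (0.00138 to 0.0704), and that of Cxcl10 without SKO cluster B or blank virus of either arm (0.00141 to 0.0742). The call for Parp14 was lost without SKO cluster C or any no-SKO virus (0.00156 to 0.0848). Those for Ddx60 (0.0253 to 0.129) and Ifit3b (0.00581 to 0.115) were lost without SKO cluster B, SKO cluster C or any no-SKO virus.

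**Figure D4:**
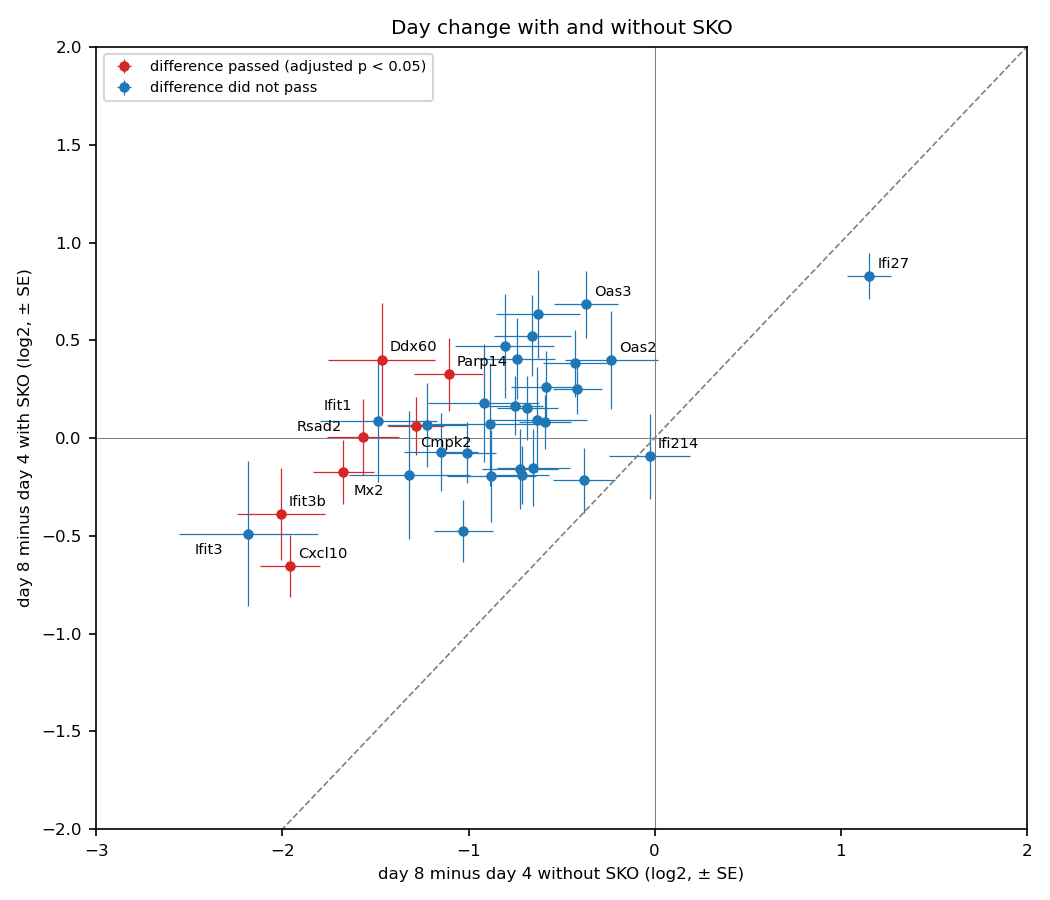
Each point is 1 of the 36 genes. The horizontal axis gives its fitted day change (log2) without SKO and the vertical axis that with SKO. Bars are limma's SE, which pools the spread of both arms, and the dashed line marks equal change. All but Ifi27 and Ifi214 lie above the line, and the 7 red points are the genes whose difference passed, from 1.31 (Cxcl10) to 1.87 (Ddx60).

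Neither microRNA cluster changed any of the 36 genes past the threshold when both days were averaged. The median of cluster minus blank virus was -0.26 for cluster B and -0.19 for cluster C with SKO, and -0.24 and -0.12 without. Over all genes 0.01% passed for cluster B with SKO, 0.0201% for cluster C with SKO, and 0% for either cluster without SKO. At an unadjusted p under 0.05 in limma, 3 of the 36 were lower for cluster B with SKO (background 1.82%). For cluster C with SKO 1 was lower (3.61%) and 1 higher (3.21%). Without SKO 4 were lower for cluster B (2.13%) and 4 for cluster C (2.59%).

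The rest of the pathway was read from further lists. Of 53 other measured interferon-stimulated genes, 17 fell and 3 rose without SKO, with a median of -0.36; over all genes 4.63% fell and 4.05% rose. With SKO 8 rose and 1 fell, against 5.24% and 3.66% of all genes. On day 4, 23 of the 53 were lower with SKO than without and 3 were higher (median -0.47), against 9.4% and 9.52% of all genes. On day 8, 6 were lower and 9 higher, against 12.7% and 13.4%. The 17 were Irgm1, Gbp7, Pml, Phf11d, Helz2, Iigp1, Adar, Mov10, Trim21, Tor3a, Parp12, Pnpt1, Trim25, Znfx1, Nmi, Tlr3 and Tdrd7, and those that rose were Slfn5, Tnfsf10 and Ifitm1. With SKO Ifitm1, Tnfsf10, Aim2, Psmb8, Slfn5, Psmb9, Sp100 and Gbp4 rose. In 9 of the 53 the day changes differed between arms, all higher with SKO (Gbp7, Phf11d, Iigp1, Sp100, Aim2, Trim21, Parp12, Ifitm1 and Znfx1). Over all genes 1.97% had a higher and 1% a lower change. Irgm1, an immunity-related GTPase, fell the most, by 1.38 ± 0.21 (adjusted p = 0.00666), and measured 9.19, 8.96 and 9.01 on day 4 and 7.76, 7.30 and 7.94 on day 8. Its arm-by-arm difference was 1.26 ± 0.30 (adjusted p = 0.0647). Gbp7 fell by 1.26 ± 0.21 (adjusted p = 0.00958), and its difference between arms was 1.65 ± 0.30 (adjusted p = 0.025). Like Ifi27, the 3 that rose without SKO rose in both arms. Tnfsf10, the death ligand TRAIL, rose by 0.80 ± 0.13 without SKO and 1.55 ± 0.13 with SKO (adjusted p = 0.0074 and 0.000217). Slfn5, of the Schlafen family, rose by 1.08 ± 0.16 without SKO and 1.06 ± 0.16 with SKO (adjusted p = 0.00596 and 0.00499), and Ifitm1, a membrane protein that blocks viral entry, rose by 0.71 ± 0.10 and 1.56 ± 0.10 (adjusted p = 0.0034 and 7.03e-05). Ccl5, a chemokine, was the 1 that fell with SKO, by 0.63 ± 0.12 (adjusted p = 0.0124).

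The other lists are short, and a count of 1 in them is near the 4.05% of all genes that rose and the 4.63% that fell without SKO. Of 16 measured interferon genes, 1 passed in a day change, Ifnb1, which rose without SKO by 0.57 ± 0.14 (adjusted p = 0.039). It measured 2.67, 2.99 and 3.15 on day 4 and 3.34, 3.75 and 3.44 on day 8. Those day 4 levels lie below the arrays' lower quartiles of 3.48 to 3.68. On day 8 the blank virus and cluster C levels also lie below them, and that of cluster B lies just above. Of 10 receptor and JAK-STAT genes, 1 passed in a day change, Jak2, which rose without SKO by 0.47 ± 0.10 (adjusted p = 0.028), and Tyk2 had the lowest value, -0.58 ± 0.16 (adjusted p = 0.0578). On day 4, 4 of these 10 were lower with SKO than without, against 9.4% of all genes: Ifngr2 (-0.89 ± 0.09, adjusted p = 0.000198), Jak1 (-0.52 ± 0.09, adjusted p = 0.00431), Ifnar1 (-0.37 ± 0.11, adjusted p = 0.0444) and Ifnar2 (-0.36 ± 0.11, adjusted p = 0.0438). Jak2 was higher there (0.37 ± 0.10, adjusted p = 0.0372). On day 8, 3 of the 10 (Ifngr2, Ifnar1 and Jak1) were lower, against 12.7% of all genes. Of 15 sensing and relay genes, Ddx58 (RIG-I) and Mavs fell without SKO, by 0.93 ± 0.15 and 0.46 ± 0.12 (adjusted p = 0.00732 and 0.0444), and Tlr7 rose by 0.56 ± 0.15 (adjusted p = 0.0494) at levels of 2.50 to 3.52. For Ddx58 the difference between arms in day change also passed, at 0.98 ± 0.21 (limma, adjusted p = 0.0436). It did so in that direction for 1.97% of all genes. On day 4, 4 of the 15 were lower with SKO than without and 1, Mavs, was higher, by 0.75. On day 8, 3 were lower and 2 higher (Tbk1 and Mavs, the latter by 1.08). Among 14 inhibitors of the pathway, Nlrc5 and Socs3 rose without SKO, by 0.53 ± 0.11 and 0.56 ± 0.13 (limma, adjusted p = 0.0196 and 0.0339). Pias1 fell there by 0.51 ± 0.12 (adjusted p = 0.0339), and Ptpn6 rose with SKO by 0.58 ± 0.13 (adjusted p = 0.0256). Between the arms, 2 of the 14 (Tnfaip3 and Rnf125) were higher with SKO on day 4 and 0 lower. On day 8, 5 were higher and 2 (Socs1 and Nlrc5) lower. Rnf125 was higher by 1.61 on day 4 and 1.40 on day 8. Over all genes, 9.52% were higher and 9.4% lower on day 4, and 13.4% and 12.7% on day 8.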

How the data were processed

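RNA of 12 samples, 1 array each, was read on Affymetrix whole-transcript arrays. The deposited values are log2 intensities for 28853 probe sets, as deposited by the authors; the submitters' processing notes name RMA and Partek, without versions or order. RMA estimates background and equalises distributions across arrays, which compresses differences of dim genes. Precision is limited by having 12 arrays. Groups came from the titles, since every sample carries 1 description text that names other cells and another day. Platform annotation gave 1 gene to 21789 probe sets, several to 1621 and none to 5443; of the former, 21698 matched RefSeq by Entrez number and 0 symbols changed. Per gene the probe set with the highest mean was kept.

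All 19938 genes were fitted with limma 3.58.1 in R 4.3.3, with 8 coefficients (an intercept, a day change and 2 cluster effects in each arm), 4 residual and 4.94 prior degrees of freedom, and p-values adjusted by Benjamini and Hochberg at 0.05. A further 6 fits, with 3 residual degrees of freedom, gave 1 virus its own day change. The fit was tested on simulated data. Leaving out 1 array of a pair removes that virus from its arm's day change, so either omission of a pair gives the same day change. An omission in 1 arm leaves the day change of the other arm as it was and alters only its p-value. Each measured gene of the list has 1 probe set, so averaging probe sets or fitting every probe set left its values unchanged. Named genes were those that passed in a day change or its difference, and the highest and lowest of each role group in that difference; for other pathway lists, those that passed or lay at the ends. Members and lists were chosen with earlier results of these data known.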

Additional observations from a re-analysis of the deposited data

Results flagged for a closer look

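In 7 genes of the 36 the day change differed between the arms by a test of the difference itself (limma, adjusted over 19938 genes). Over all genes 1.97% had a higher and 1% a lower change. Day 8 minus day 4 with SKO, less the same without SKO, was 1.87 for Ddx60, 1.62 for Ifit3b, 1.57 for Rsad2, 1.50 for Mx2, 1.43 for Parp14, 1.34 for Cmpk2 and 1.31 for Cxcl10. In each of these genes all 3 single-pair changes with SKO lay above the 3 without, an ordering seen in 12.8% of all genes. It is read from the same values as the test and so adds no separate support. Each call was lost without at least 1 virus, as given in the report. The SKO arm and the Group2 tag of the other arm cannot be told apart.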

How the results depend on the processing

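Of 29 gene calls, the direction was kept under each alternative run. In all 19, 8 calls were also kept past the threshold (Cmpk2, Cxcl10, Herc6, Ifi27, Ifit3b, Mx2 and Rsad2 without SKO, and Ifi27 with SKO). Several of the 19 repeat the same estimate, so they are not 19 separate checks. Outside the omission of arrays, 6 gene values lost the threshold: Oas3 with SKO when each arm was fitted alone or under quantile normalization, Ifit1 and Usp18 under a variance trend with robust estimation, and Irf9 and Parp9 under quantile normalization. The number of genes rising with SKO was 1 with each arm fitted alone and under quantile normalization, and the number falling was 2 under the variance trend. For the difference between arms, 19 genes passed under the variance trend and 14 with dim genes left out. The promoter share was 42.4% with the longer motif. When single arrays were left out, the number falling without SKO ran from 7 to 24, and the number rising with SKO was 1 each time, with 0 to 1 falling. The difference between arms gave 2 to 8 genes, and the comparison of arms gave 12 to 28 lower and 1 to 3 higher on day 4, and 3 to 7 higher and 1 to 6 lower on day 8. The median day change with SKO ran from -0.22, without either SKO cluster B array, to 0.29. The median difference between arms on day 8 ran up to 0.30 and turned to -0.037 under quantile normalization, -0.0046 with equal array medians, -0.22 without the SKO cluster B array and -0.14 without the no-SKO cluster B array of that day. The causes were not tested. The labels carry no replicate numbers, so no block by number was fitted; the fit compares the days within each virus and arm.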

Other observations

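Several of the genes are neighbours. In RefSeq's GRCm38.p6, Ifit2, Ifit3, Ifit3b and Ifit1 follow each other with gaps of 6585, 18548 and 27486 bases, and all 4 fell without SKO. Oas2 and Oas3 are 3212 bases apart and were both higher with SKO on day 8, while Oasl2 and Oasl1, 10898 bases apart on the same chromosome, did not pass there. Mx1 and Mx2 are 73175 bases apart, and Mx2 fell without SKO while Mx1 did not pass. No test of position was made.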
